A study of Homo sapiens with 31 samples.

Results

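Of the 55371 circular RNA (circRNA) structures in the deposited table, 550 were well covered, with 50 or more back-splice reads summed over the 15 libraries, and had no read in any of the 3 libraries from undifferentiated cells. These 550 structures are described here as the members. A circRNA forms when a splice donor is joined to an acceptor that lies upstream of it, which closes 1 or more exons into a ring, and a back-splice read is a sequencing read that crosses that junction. Circular transcripts are more stable than their linear counterparts, accumulate in cells that divide slowly, and are known to be abundant in brain and retina, where many derive from genes of synapses, axons and cell adhesion. The members were chosen by their summed count and their day 0 counts, so their absence at day 0 is a description and is given here with no test.

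All libraries came from the human embryonic stem (ES) cell line H9, an established line, so every value describes a single line. Cells were harvested undifferentiated at day 0, and after differentiation towards retina for 45 or 90 days, either with no addition or with recombinant human IGF-1 (a growth factor, 5 ng/ml until day 37 and 10 ng/ml from then on). Each of the 5 conditions had 3 libraries from cultures plated in triplicate. Whole cultures were sequenced as ribosome-depleted, stranded total RNA, so a lower proportion of cells of a type and less RNA per cell cannot be told apart. RNA integrity numbers were 9.8 to 10 at day 0, 7.6 to 9.1 at day 45 and 7.1 to 8.9 at day 90, and the part of RNA integrity in the differences between days was not tested. Nothing in the labels says that the cultures of a condition were independent differentiations, so p-values measure the spread between these cultures.

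Back-splice reads were fewer at day 0, although the limit that 0 counts sets in a library was 0.0211 to 0.0240 RPM there and 0.0194 to 0.0284 RPM later, so that the libraries were sequenced to similar depth. The 3 day 0 libraries held 14992, 15116 and 17929 back-splice reads, against 42858 to 108946 in the 12 later libraries, and 48037 of all 1029205 reads came from day 0. A member with 50 reads would therefore have had 2.45 reads over the 3 day 0 libraries if its ratio of day 0 to later reads had been that of all circRNAs together, one with 100 reads would have had 4.90, and the most abundant would have had 56.7. At that ratio 382 of the 550 members would have had 3 or more. For the others, fewer than 3 reads would have been found at that ratio, so a level at that average lay under the limit of 3 counts. A count of 0 over the 3 day 0 libraries allows a level of up to 0.00737 reads per 1000000 sequenced reads (RPM), taking 3 counts as the limit for the group, and this covers counting error only. Back-splice reads of 13 pluripotency genes summed to between 0.288 and 0.442 RPM at day 0 and to between 0.116 and 0.280 RPM later, while those of 25 genes of retinal development summed to between 0.104 and 0.185 RPM at day 0 and to between 0.909 and 2.74 RPM later.

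The edges of the rule were populated on both sides. In total 16 members had exactly 50 reads, and 21 structures with none at day 0 had 49. Among the 3469 structures with 50 or more reads, 2919 had at least 1 read at day 0 and 431 of these had exactly 1. The most abundant of the 431 came from SUCO, with 1 read at day 0 of 1728 in all.

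The junctions of the members on which the description turns are given here, read in the sense of transcription from the hg19 (GRCh37) genome. In each, the last 25 bases of the donor exon are in lower case and the first 25 bases of the upstream acceptor exon are in capitals, so that the change of case marks the back-splice. The first 5 are among the 6 most abundant members, RELN is the leading member of a gene with no day 0 circRNA, and RIMS1, TULP1 and LCA5 come from genes with retinal functions.
ATRNL1 (chr10:116879949-116931050, plus strand): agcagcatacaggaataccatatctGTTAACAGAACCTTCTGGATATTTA
ZNF568 (chr19:37408481-37428144, plus strand): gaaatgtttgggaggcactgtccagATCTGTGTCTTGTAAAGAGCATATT
PDE4B (chr1:66378928-66384518, plus strand): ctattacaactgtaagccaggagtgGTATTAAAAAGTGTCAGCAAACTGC
ZBTB20 (chr3:114069121-114070725, minus strand): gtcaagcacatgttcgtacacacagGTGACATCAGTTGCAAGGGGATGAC
FMN1 (chr15:33445249-33447246, minus strand): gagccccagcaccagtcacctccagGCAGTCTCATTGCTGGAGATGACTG
RELN (chr7:103473984-103557632, minus strand): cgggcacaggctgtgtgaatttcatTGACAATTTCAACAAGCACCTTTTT
RIMS1 (chr6:73016961-73043538, plus strand): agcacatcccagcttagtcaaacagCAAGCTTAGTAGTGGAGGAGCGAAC
TULP1 (chr6:35471336-35471625, minus strand): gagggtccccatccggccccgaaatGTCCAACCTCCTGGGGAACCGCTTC
LCA5 (chr6:80222929-80228802, minus strand): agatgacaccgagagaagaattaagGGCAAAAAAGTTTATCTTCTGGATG
In the genome, AG stood directly before the acceptor of all 550 members and GT directly after the donor of 549.

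The most abundant member came from ATRNL1, which encodes a membrane protein related to attractin, and joined exon 8 to exon 2 across 7 coding exons (1055 bases). It had no read at day 0, 148, 82 and 132 reads in replicates 1 to 3 at day 45, 58, 104 and 80 with IGF-1 at day 45, 56, 118 and 125 at day 90, and 95, 108 and 52 with IGF-1 at day 90. All 12 later libraries therefore held it, with overlapping ranges at the 2 time points. Its mean level was 0.943 ± 0.374 RPM at day 45 and 0.690 ± 0.249 RPM at day 90 (SD, n = 3 untreated libraries each), which was at least 128-fold and at least 93.7-fold higher than the limit that day 0 allows. That limit covers counting error only, and 97 members had a 0 beside 10 or more reads in the same condition.

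A circle of exons 2 to 5 of ZNF568, a KRAB zinc finger gene, had 550 reads, between 20 and 64 in each later library. At day 45 it was at least 54.0-fold above the same day 0 limit, which covers counting error only. A circle of exons 2 and 3 of PDE4B, which encodes a cyclic AMP phosphodiesterase, had 490 reads, between 22 and 72 in each later library. Both are partly coding, with 166 of 352 bases and 281 of 351 bases in the coding sequence. ZBTB20 and FMN1 each contributed a circle made of 1 long exon. That of ZBTB20, a zinc finger transcriptional repressor of the developing brain, is 1605 bases long and had 395 reads. That of FMN1, a formin that nucleates actin filaments, is 1998 bases long and had 391 reads. VWA3A had 375 reads in a 2-exon circle of 220 bases, PRELID2 had 299 reads over 6 exons, PGAP1, an enzyme that remodels GPI anchors, had 300 reads over 3 exons, and the transporter gene SLCO5A1 had 388 reads over 2 exons. In the last 2 genes replicate 1 at day 45 stood apart, with 88 reads in each against 15 to 24 in the other untreated day 45 libraries.

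**Figure D1:**
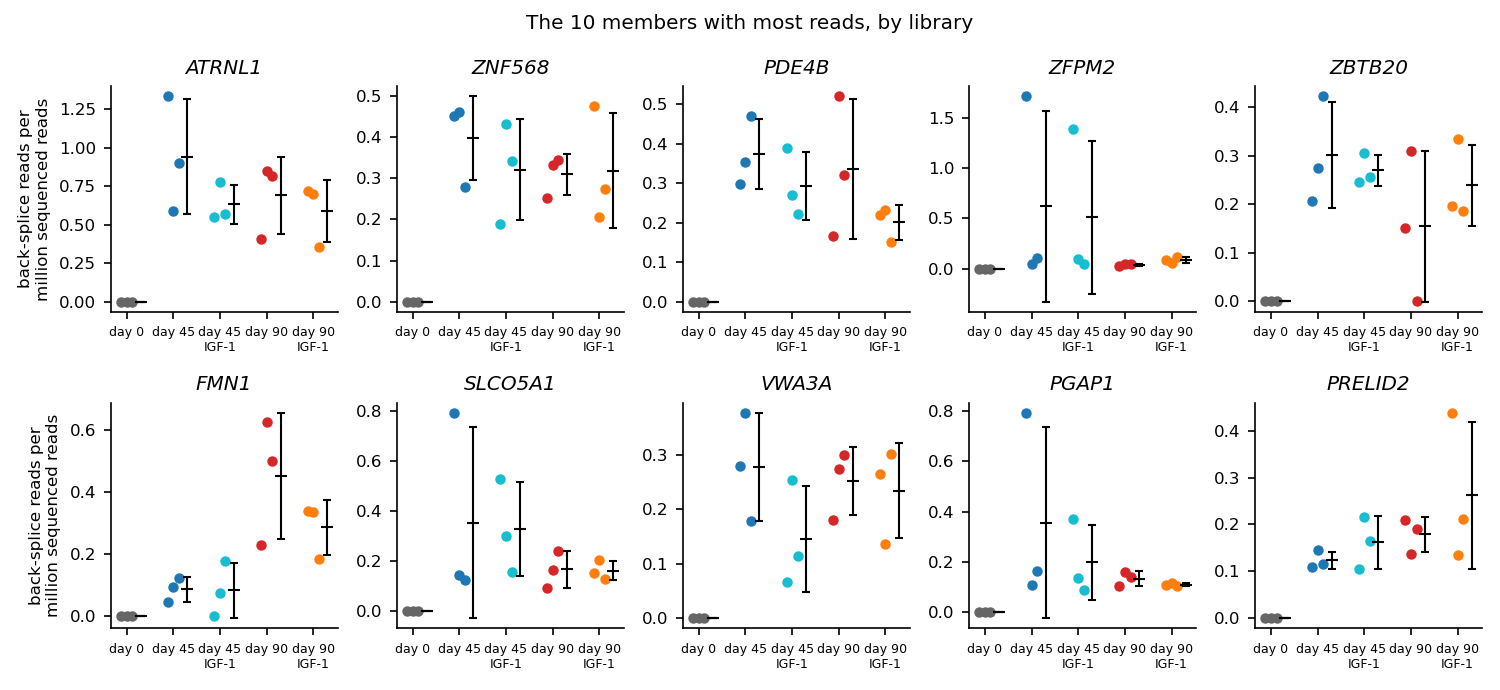
Back-splice reads per 1000000 sequenced reads of the 10 members with most reads in each of the 15 libraries, one panel per host gene, with the mean and SD (n = 3) of each condition drawn beside the points. All points at day 0 lie at 0, FMN1 lies higher at day 90 than at day 45, and in ZFPM2 a single library stands apart in each day 45 condition, at 190 and 147 reads.

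Annotation assigned 548 of the 550 members to a single gene, and 2 overlapped several genes and were left unassigned. Of the 548, 541 lay in protein-coding genes, 6 in lncRNAs (among them RMST, a lncRNA of neurogenesis, with a structure of 54 reads) and 1 in a transcribed pseudogene, FER1L4. The 548 came from 461 host genes, of which 193 also gave well-covered circRNAs that were present at day 0. In 194 members (35.4%), from 167 genes, the host gene had no day 0 back-splice read from any of its circRNAs. The other 354 members were structures without day 0 reads beside other circRNAs of the same gene that had them. The 10.6% of the 12454 tested and assigned circRNAs whose host had no day 0 back-splice read give the background to this share. That background includes structures with few reads, and the rule that chose the members bears on the share, so nothing is read from the difference.

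Both situations are seen among the 17 genes with 3 or more members. RELN, which encodes the extracellular guidance protein reelin, had 30 circRNA structures with 593 reads and none at day 0, and its 5 members took 85.2% of those reads. The circles that begin at exon 2, with donors at exons 3, 4, 6 and 8, held 281, 54, 53 and 65 reads, and that of exons 9 and 10 held 52. The leading one had 13, 25 and 17 reads in replicates 1 to 3 at day 45, 4, 24 and 24 with IGF-1, 12, 34 and 35 at day 90, and 21, 30 and 42 with IGF-1. No day 0 read was seen either from DACH1, a transcription factor gene of the retinal determination network, from EML1, a microtubule-binding protein gene, from the cadherin gene CDH20 or from the phospholipase gene PLCE1, which had 3 members each and 360, 427, 314 and 203 reads in all.

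ATRNL1 had members beside circles that were present at day 0. It had 60 structures and 5923 reads, 48 of them at day 0, and 8 of its structures were members. The circle from exon 5 to exon 2 had 2133 reads with 34 at day 0, and that from exon 24 to exon 22 had 964 reads with 6 at day 0. Of the structures with 50 or more reads that share the exon 2 acceptor, those with donors at exons 5, 7, 10 and 19 had 34, 2, 1 and 4 day 0 reads, and those with donors at exons 8, 9, 18, 21 and 24 had none, although the exon 8 structure was the second most abundant circle of the gene. The longest member was among them: the ring of exons 2 to 24, 23 exons and 348891 bases of the genome, with 128 reads. PCCA, a subunit gene of a mitochondrial carboxylase, likewise had 85 day 0 reads over 66 structures, 53 of them in the circle of exons 9 to 12, while the circle of exons 9 to 16, with 146 reads, had none. The genes with 3 or more members were completed by DENND4A (5), ATP9A and NCOA1 (4 each), and TRIM2, DENND1B, PARD3B, CEP112, USP34, BIRC6 and CDON (3 each).

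At the level of splice sites, 309 members (56.2%) used an acceptor and a donor that were both unseen in any day 0 back-splice, against 2675 of 12498 tested circRNAs (21.4%). The acceptor of 172 members and the donor of 133 were used at day 0 in another circle, and in 64 members both were, but not with each other. These counts include sites of circles with few reads. By the rule a member has no day 0 read of its own, so nothing is read from the difference to the tested circRNAs.

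Host genes were then set against lists of neural and retinal genes, which were compiled with earlier results of these data known. Of the 550 members, 93 (16.9%) had a host in at least 1 of the 6 neural lists and 21 (3.82%) in at least 1 of the 2 retinal lists. The shares were 193 of 2919 (6.61%) and 42 of 2919 (1.44%) among equally covered circRNAs with day 0 reads, and 969 of 12498 (7.75%) and 239 of 12498 (1.91%) among all tested circRNAs. Among the 431 structures with exactly 1 day 0 read, the nearest to the rule, they were 41 (9.51%) and 5 (1.16%). These counts are a description, since several members share a host. The 2919 circRNAs also had more reads, at a median of 109 against 72 in members. Moreover, the rule favours hosts without day 0 reads, so nothing is read from the differences between the sets. The gap was widest for adhesion and axon guidance, with 28 members from 14 genes (5.09%) against 22 circRNAs (0.754%), but 8 of the 28 came from ATRNL1 and 5 from RELN. No member came from the 13 pluripotency genes with circRNAs, against 1 of the 2919 with day 0 reads (0.0343%). The rule selects against reads at day 0, so nothing is read from this absence. In the list of markers of other cell types there was 1 member, from ZFPM2, and 0 of the 2919.

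**Figure D2:**
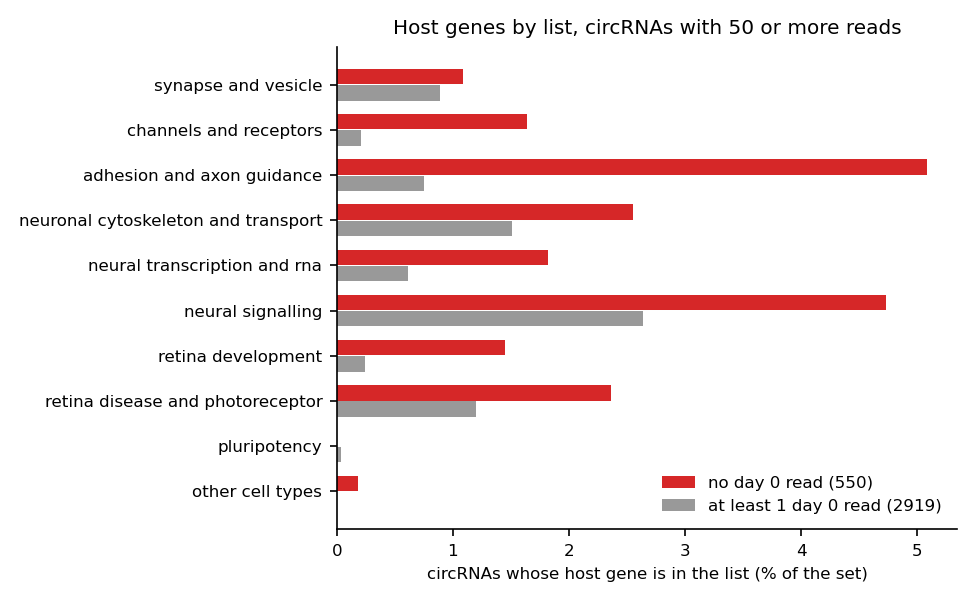
Share of circRNAs with 50 or more reads whose host gene is in each list, in percent, for the 550 members (red) and for the 2919 with day 0 reads (grey). The red bar is the longer for every list except pluripotency, with 5.09% against 0.754% for adhesion and axon guidance and 1.09% against 0.891% for synapse and vesicle genes.

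Among adhesion and guidance genes, the leading members after ATRNL1 and RELN were a 1-exon circle of MYO16, an unconventional myosin of neurons, with 185 reads, and one of ADGRB3, an adhesion receptor of synapses, with 173. The 14 members of the cytoskeleton and transport list, from 11 genes, were led by FMN1 and by DCLK2, a doublecortin-like kinase that binds microtubules, whose 335-base exon 2 circle had 11 to 31 reads in every later library and 295 in all. ANK3, the ankyrin of the axon initial segment, had 224 reads. The 26 members of the neural signalling list, from 19 genes, were led by PDE4B, by PDE1C, a calmodulin-dependent phosphodiesterase, with 261 reads, and by SORCS1, a sorting receptor, with 188. The synapse list held 6 members from 5 genes. RIMS1, a scaffold of the presynaptic active zone in which mutations cause cone-rod dystrophy, had 31, 14 and 46 reads at day 45, 27, 23 and 18 with IGF-1, 12, 35 and 19 at day 90, and 22, 29 and 7 with IGF-1. MAGI3, a scaffold of cell junctions, had 256 reads and STXBP5, a syntaxin-binding protein, had 160 in an 18-exon circle.

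Channels and receptors contributed 9 members from 9 genes, against 6 circRNAs with day 0 reads. They included TRPC1, a cation channel (162 reads over 8 exons), CACNA2D1, an auxiliary subunit of calcium channels (121), CACNA1A, a pore-forming calcium channel subunit (83), and ATP2B4, a calcium pump (74). The 10 members of the transcription and RNA list were led by CPEB3, a regulator of translation (132 reads), ZNF423 (123), ZNF536 (103, a single exon of 1572 bases) and GLI3, a mediator of hedgehog signalling (87).

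The retinal lists held few members but several well-known genes. BMPR1B, a BMP receptor that acts in patterning the eye, gave 2 circles with 214 and 186 reads, both from exon 2. DACH1 gave 3, with 126, 113 and 53 reads, and LRP2, an endocytic receptor of the optic neuroepithelium, had 107 reads over 12 exons. The host had no day 0 read in 6 of the 8 members of the retinal development list and in 7 of the 13 of the disease and photoreceptor list. Of the latter, DHDDS, an enzyme of dolichol synthesis mutated in retinitis pigmentosa, had 205 reads. LCA5, which encodes the ciliary protein lebercilin, had 169 reads: 10, 14 and 21 at day 45, 12, 17 and 22 with IGF-1, 7, 5 and 16 at day 90, and 19, 19 and 7 with IGF-1. TULP1, a photoreceptor protein, had 3, 16 and 8 reads at day 45, 0, 12 and 2 with IGF-1, 10, 12 and 23 at day 90, and 22, 19 and 14 with IGF-1. The TULP1 counts were therefore mostly higher at day 90, by 1.21 ± 0.42 on the log2 scale (averaged over treatment, SE), but did not pass the test (adjusted p = 0.29, edgeR).

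The median exon number of the members was 3 (interquartile range 2 to 5) and so was that of the 2919 structures with day 0 reads. A single exon made up 32 of 548 members (5.84%), 2 exons 158 (28.8%) and 10 or more exons 33 (6.02%), against 6.46%, 27.8% and 3.16% of the circRNAs with day 0 reads. The median spliced length was 423.5 and 419 bases. The median genomic span was 8757.5 bases for members, with an upper quartile of 25930 bases, against 7295 and 18481 bases. The flanking introns had a median length of 11538 bases upstream and 9805 bases downstream in members, and of 9367 and 8052 bases in circRNAs with day 0 reads. In the 431 structures with 1 day 0 read these introns were shorter, at 7003.5 and 6524 bases. The first exon of the ring was exon 2 of the annotated transcript in 170 members (31.0%) and exon 1 in 2. All bases were coding in 416 members (75.9%), some in 89 and none in 43. Among the 416, the length was a multiple of 3 in 146 (35.1%), against 36.8% of the fully coding circRNAs with day 0 reads. The smallest member was a single exon of NRIP1, a nuclear receptor corepressor, of 80 bases (99 reads).

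**Figure D3:**
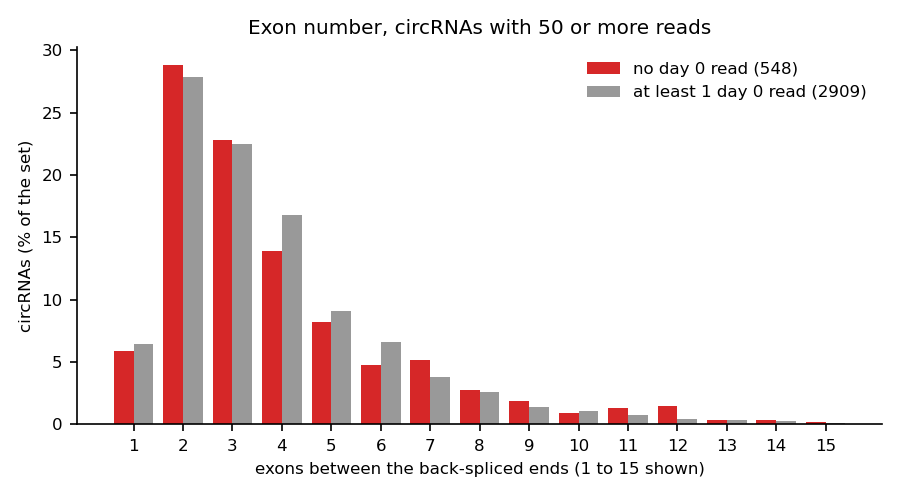
Exon number of the ring for the 548 members assigned to a gene (red) and for 2909 circRNAs with 50 or more reads and day 0 reads (grey), in percent of each set, from 1 to 15 exons. Both distributions peak at 2 exons, at 28.8% and 27.8%.

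The members were less evenly detected than other well-covered circRNAs. Reads were present in all 12 later libraries for 336 of 550 members (61.1%), against 87.2% of the circRNAs with day 0 reads and 82.1% of those with exactly 1, and the last group had the same median of 72 reads as the members. Of the 550, 97 (17.6%) had 0 reads in a library beside 10 or more in another library of the same condition, against 3.29% of circRNAs with day 0 reads and 5.34% of those with 1. The rule that chose the members requires counts of 0 at day 0, and so can favour structures prone to zeros. Nothing is therefore read from these differences. Replicate 1 at day 90 and replicate 1 with IGF-1 at day 45, the 2 later libraries with the fewest back-splice reads (42858 and 60537), had 90 and 79 members at 0, against 13 to 35 in the others, and the part of the back-splice total in the zeros was not tested. Without those 2 libraries, 60 members still had a 0 beside 10 or more reads.

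Some of these zeros were far from the counts of the other libraries. The ZBTB20 circle had 23, 38 and 62 reads at day 45, 26, 41 and 36 with IGF-1, 21 and 43 in replicates 1 and 2 at day 90 and none in replicate 3, and 26, 52 and 27 with IGF-1. Replicate 3 at day 90 held 93433 back-splice reads in all. LMO1, a transcriptional co-regulator, and DHDDS had 0 reads in replicate 1 with IGF-1 at day 45 and 9 to 28 and 10 to 27 reads in the other 11 later libraries. PDE1C had 0 in the same library and 8 to 40 elsewhere.

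**Figure D4:**
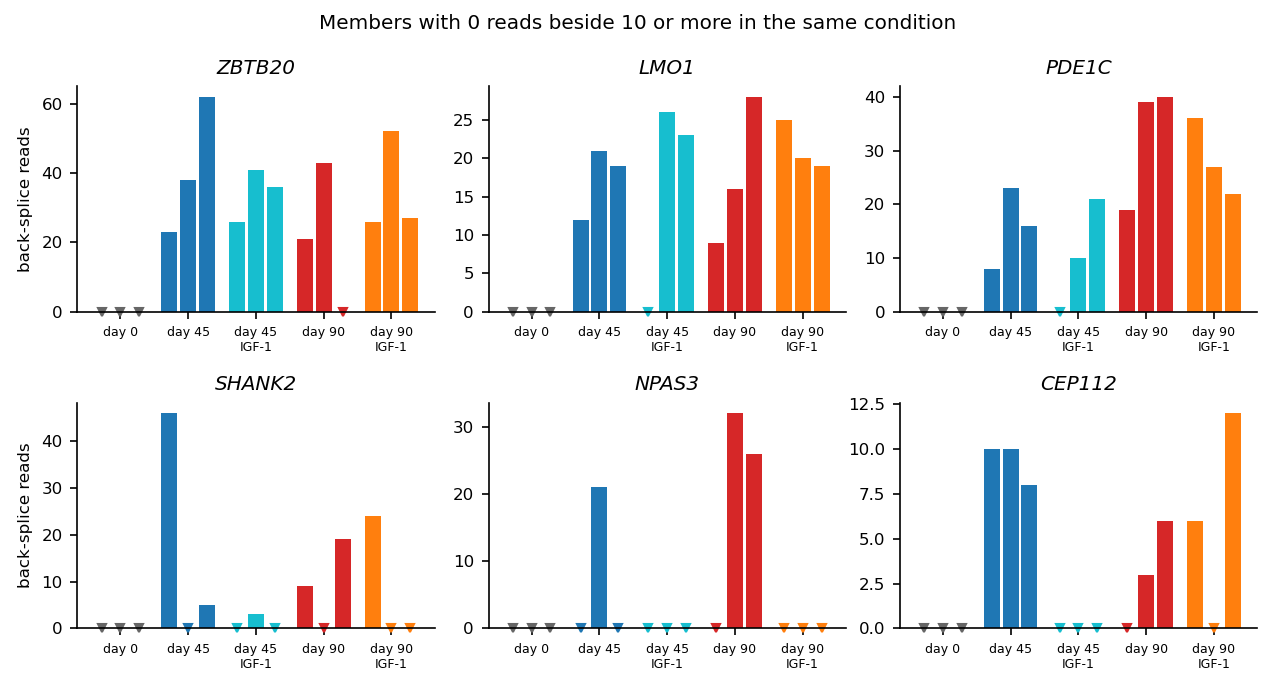
Back-splice reads in each library for 6 members with 0 reads beside 10 or more in the same condition, 3 bars per condition and a triangle at each 0. ZBTB20 has a single 0 after day 0, as does LMO1, whereas NPAS3 has reads in 3 libraries.

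Some members had a near neighbour: 8 had another structure within 15 bases at both ends. In TRIM2, a ubiquitin ligase gene of neurons named here after its values were seen, 2 members with 189 and 134 reads differ by 3 bases at the acceptor. The longer had 9 to 28 reads in each later library, and the shorter had 5 to 30 in 11 of them and 0 in replicate 1 at day 90. Their junctions are shown with 25 bases on each side of the back-splice, and capitals mark the bases that only the longer structure contains.
TRIM2, longer (chr4:154191487-154197282, plus strand): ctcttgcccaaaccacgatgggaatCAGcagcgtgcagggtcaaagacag
TRIM2, shorter (chr4:154191490-154197282, plus strand): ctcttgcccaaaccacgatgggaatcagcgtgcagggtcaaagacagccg
The extra bases are cag, so that an AG precedes either acceptor. Reads near such paired junctions could be assigned to either structure, and the counts of these members are uncertain to that extent.

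The next question was how the members behaved between day 45 and day 90. Their summed level was 39.0 ± 12.3 RPM at day 45, 30.4 ± 3.54 RPM with IGF-1 at day 45, 27.0 ± 9.34 RPM at day 90 and 30.3 ± 5.61 RPM with IGF-1 at day 90 (SD, n = 3). In percent of all back-splice reads of a library they held 5.00 to 5.40 at day 45, 4.72 to 5.05 with IGF-1 at day 45, 5.33 to 5.67 at day 90 and 4.98 to 5.45 with IGF-1 at day 90. Every member had reads at both times. Members were tested with edgeR within a fit of all 12498 circRNAs that had 10 or more reads, with sequenced reads as library sizes, with Benjamini-Hochberg adjustment over all of them.

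In untreated cultures the median log2 change of the members from day 45 to day 90 was -0.52 (interquartile range -0.98 to -0.08), beside -0.61 for all tested circRNAs. With IGF-1 it was -0.02 beside -0.14, and averaged over treatment it was -0.28 beside -0.38. The direction depends on the scaling: with DESeq2 size factors the same medians were 0.07, 0.11 and 0.10, beside -0.04, -0.01 and -0.03 for all circRNAs. Under sequenced reads, TMM and DESeq2 size factors the members lay 0.09 to 0.12 above the median of all circRNAs in these 3 comparisons. A change of scaling shifts all circRNAs by nearly the same amount, so the 3 scalings are not separate support for this gap. Its spread between replicates was not computed. Without single libraries the medians under sequenced reads were -0.76 to -0.27 untreated, -0.20 to 0.10 with IGF-1 and -0.41 to -0.15 averaged.

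Few members passed the test. In untreated cultures 4 of 550 were called with adjusted p below 0.05 (0.727%), 1 with a rise and 3 with a fall, with a background of 0.08% (10 of 12498). With IGF-1 1 was called, lower at day 90, with a background of 0.016%, and averaged over treatment 3 were called, 2 higher and 1 lower, with a background of 0.136% (17 of 12498). The balance depends on the scaling, since the untreated comparison called 2 higher and 1 lower under TMM and 3 higher and 1 lower under DESeq2 size factors. Under TMM the averaged comparison called 5, 4 higher and 1 lower, and under DESeq2 size factors 6, 5 higher and 1 lower. At an unadjusted p under 0.05 in edgeR there were 79, 29 and 65 members (14.4%, 5.27% and 11.8%), beside 9.61%, 4.57% and 8.98% of all tested circRNAs. The backgrounds here and below include the members and many circRNAs with few reads, at a median of 25 reads against 72 in members. Nothing is therefore read from the differences to them. DESeq2's Wald test called no member in any of the 3 comparisons, and Fisher's exact test on summed counts, which ignores the spread between replicates, called 74, 16 and 73. The 6 libraries of day 90 were each higher than the 6 of day 45 for 1 of 550 members, FMN1 (background 0.064%). They were each lower for 1 of 550, WDR17 (background 0.424%), which is named after its values were seen. The day 90 read numbers of replicates 1 and 2 were set to a common mean. WDR17 overlapped under the second of their assignments, where LRRC49 was the 1 member with all 6 day 90 libraries lower. A member that had 50 reads only through the group where it is high had to differ, so for each call the reads outside that group are given.

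The long-exon circle of FMN1 was called higher at day 90 in untreated cultures and averaged over treatment, but not with IGF-1 alone. The circle of its long exon had 5, 13 and 18 reads at day 45 and 0, 10 and 25 with IGF-1, against 32, 87 and 77 at day 90 and 45, 52 and 27 with IGF-1. No day 45 library reached the level of any day 90 library. The log2 change was 2.34 ± 0.48 in untreated cultures (SE, adjusted p = 0.00407, edgeR), and 2.02 ± 0.34 averaged over treatment (adjusted p = 1.70e-05, edgeR). With IGF-1 it was 1.70 ± 0.48 and did not pass (adjusted p = 0.50, edgeR). DESeq2's Wald test did not call the circle untreated (adjusted p = 0.098) or averaged (adjusted p = 0.19). Averaged over treatment it passed in edgeR without any 1 library, with values of 1.75 to 2.58. In untreated cultures it did not pass without replicate 1 at day 45 or without replicate 2 at day 90 (adjusted p = 0.13 each, edgeR). A second FMN1 member, a circle of 5 exons (exons 9 to 13) with 61 reads, had 5 reads in the 6 day 45 libraries and 56 in the 6 day 90 libraries. It rose by 3.31 ± 0.70 averaged over treatment (adjusted p = 0.00354, edgeR), although replicate 2 with IGF-1 at day 90 held none. It met the 50-read rule only through day 90, which makes the call no support for a rise. It did not pass without replicate 3 at day 90 (adjusted p = 0.069) or without replicate 1 with IGF-1 at day 90 (adjusted p = 0.099). The longer-exon circle had 71 reads outside day 90, and the host gene had no day 0 read.

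ZFPM2, which encodes a cofactor of GATA transcription factors best known from heart and gonads, was the member that fell most clearly by the test, and the call rested on 2 libraries. Its circle of exons 2 and 3 had 190, 6 and 15 reads at day 45 and 147, 13 and 6 with IGF-1, against 3, 6 and 7 at day 90 and 11, 9 and 17 with IGF-1. Replicate 1 of each day 45 condition stood far above the others, and the remaining day 45 libraries overlapped those of day 90. Outside day 45 the circle had 53 reads. The log2 change was -4.01 ± 0.52 in untreated cultures (adjusted p = 2.16e-10, edgeR), -2.53 ± 0.47 with IGF-1 (adjusted p = 0.00108, edgeR) and -3.27 ± 0.35 averaged (adjusted p = 2.36e-16, edgeR). Without replicate 1 at day 45 the untreated change was -0.97 (adjusted p = 0.96), and without replicate 1 with IGF-1 at day 45 the change with IGF-1 was 0.30, of the opposite sign. Back-splice reads of the 22 genes in the list of other cell types, which includes ZFPM2 itself, summed to 0.225 to 2.10 RPM at day 45, 0.185 to 1.58 with IGF-1, 0.115 to 0.222 at day 90, 0.155 to 0.411 with IGF-1, and 0.0240 to 0.0927 at day 0, and their part in the result was not tested. With a term for groups of libraries of similar base quality (share of bases at Q30) the averaged change was -1.47 or -1.55, by the assignment of the quality values, and did not pass.

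The other 2 calls in untreated cultures, CACNA1E and DENND1A, had 21 and 31 reads outside untreated day 45, so both met the 50-read rule only through the group that the test found higher, and their tests support no change. CACNA1E, a subunit gene of R-type calcium channels, had 32, 2 and 5 reads at day 45, 6, 3 and 3 with IGF-1, 0, 0 and 4 at day 90, and 0, 4 and 1 with IGF-1. Of its 60 reads, 53.3% were in replicate 1 at day 45, the highest share of any member in a single library. Its log2 change was -3.44 ± 0.83 (adjusted p = 0.0461, edgeR) and -1.34 without that library (adjusted p = 0.97), and the call was also lost without replicate 1 or 2 at day 90. DENND1A, a gene of clathrin-mediated endocytosis, had 17, 12 and 7 reads at day 45 and 0, 0 and 3 at day 90, a change of -3.61 ± 0.86 (adjusted p = 0.0461, edgeR), with 11, 0 and 6 at day 45 and 3, 0 and 8 at day 90 with IGF-1. Its call was lost without replicate 1 or 2 of either day, and both calls were lost under TMM. WDR17 had 21, 6 and 7 reads at day 45, 8, 4 and 7 with IGF-1, 2, 4 and 3 at day 90, and 2, 3 and 0 with IGF-1, and its change of -2.07 ± 0.56 averaged over treatment did not pass (adjusted p = 0.11, edgeR). It had 14 reads outside day 45 and so met the 50-read rule only through the day where it is higher, which makes its separation no support for a fall.

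**Figure D5:**
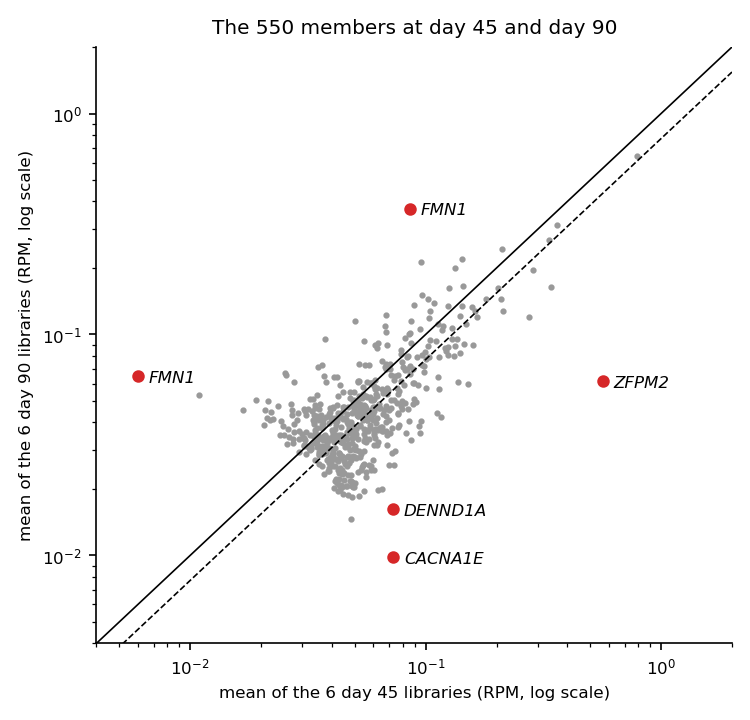
Mean level of each member in the 6 day 45 libraries and in the 6 day 90 libraries, in reads per 1000000 sequenced reads on log scales, with members that passed a test of day 90 against day 45 in red. The solid line marks equal levels and the dashed line the median change of all tested circRNAs (-0.38 on the log2 scale). Both FMN1 circles lie above the lines, and ZFPM2, DENND1A and CACNA1E lie below.

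Averaged over treatment, the median log2 change was -0.17 for the 28 members of adhesion and guidance genes, -0.21 for the 14 of the cytoskeleton list, -0.30 for the 26 of the signalling list, -0.16 for the 6 of the synapse list, -0.73 for the 9 of channels and receptors, -0.01 for the 10 of transcription and RNA genes, -0.44 for the 8 of retinal development and -0.14 for the 13 of retinal disease and photoreceptor genes, beside -0.28 for all members and -0.38 for all circRNAs. Of these lists the cytoskeleton list alone held calls in this comparison, both from FMN1. ATRNL1 (-0.27 ± 0.28), PDE4B (-0.35 ± 0.31), RELN (0.56 ± 0.34) and RIMS1 (-0.52 ± 0.34) did not pass the test (SE, adjusted p = 0.81, 0.77, 0.64 and 0.66, edgeR).

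IGF-1 was compared with no addition at each time. At day 45 the members had a median log2 difference of -0.32 beside -0.26 for all circRNAs (-0.07 under TMM, -0.10 under DESeq2 size factors, -0.05 without replicate 1 at day 45), and 2 were called, both lower with IGF-1 (background 0.016%). SHANK2, a postsynaptic scaffold gene, had 46, 0 and 5 reads without and 0, 3 and 0 reads with IGF-1 at day 45, a difference of -4.05 ± 0.80 (adjusted p = 0.00482, edgeR) that was -1.06 without replicate 1 at day 45 (adjusted p = 1), and the call was also lost without replicate 1 or 3 with IGF-1. Outside untreated day 45 the circle had 55 reads. At day 90 it had 9, 0 and 19 reads without and 24, 0 and 0 with IGF-1. A circle of CEP112, a centrosomal gene, had 10, 10 and 8 reads without IGF-1 and none in the 3 libraries with it (adjusted p = 0.0246, edgeR). Summed over replicates, the level without IGF-1 was at least 8.96-fold above the limit of 0 counts, which covers counting error only. At day 90 the circle had 0, 3 and 6 reads without and 6, 0 and 12 with IGF-1. The circle had 27 reads outside untreated day 45 and so was a member only through the group where it is high, and its test supports no difference. The CEP112 call was lost without any 1 of the 3 IGF-1 libraries at day 45 (adjusted p = 0.13 to 0.38).

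At day 90 the median was 0.19 beside 0.21, and its direction was not stable, at 0.02 under TMM, -0.05 under DESeq2 size factors and -0.08 without replicate 1 at day 90. Of the members, 1 was called (background 0.008%). NPAS3, a neural bHLH-PAS transcription factor gene, had 0, 32 and 26 reads without IGF-1 and none with it (adjusted p = 1.09e-05, edgeR). Summed over replicates, the level without IGF-1 was at least 19.5-fold above the limit of 0 counts. That limit covers counting error only, and replicate 1 without IGF-1 held no read either. The same circle had 0, 21 and 0 reads at day 45 without IGF-1 and none with it, so that all its 79 reads came from 3 libraries. Outside untreated day 90 it had 21 reads, under the 50-read rule, so its test supports no difference. The change between days differed between the treatments for no member (background 0.0%, 0 of 12498 circRNAs called by edgeR and 0 members by DESeq2), and 26 members had an unadjusted p under 0.05 in edgeR.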

How the data were processed

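Total RNA of 15 cultures was sequenced after ribosomal depletion as stranded paired-end libraries. The authors identified back-splice junctions of each library with PTESFinder v1 against GENCODE 19 transcripts on hg19, and the deposited values are counts of back-splice reads per structure and library, not normalized. RPM values are these counts per 1000000 sequenced reads of the library, computed here. Hosts, exons and introns were taken from the GENCODE 44 annotation lifted to GRCh37.

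Differences were tested in one edgeR 4.0.16 quasi-likelihood fit of all 15 libraries (R 4.3.3), with sequenced reads as library sizes, over the 12498 structures with 10 or more summed counts and with Benjamini-Hochberg adjustment at 0.05. DESeq2 1.42.0, TMM, other filters, base-quality groups, a replicate block, Fisher's exact test on summed counts and leaving out single libraries were alternatives. In simulated data 22% of 200 circRNAs changed 4-fold were found in the untreated comparison, 16.5% with IGF-1 and 68.5% averaged over treatment. The simulation covered 12498 circRNAs with a common dispersion (spread between replicates) of 0.179. The members have no read at day 0, and 17.6% of them have a 0 beside 10 or more reads in the same condition. Whether the simulated shares hold for such circRNAs was not tested.

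Members and gene lists were chosen with earlier results of these data known. Named members are the 10 with most reads, those called in a comparison, up to 4 with most reads per list, host genes with 3 or more members, and up to 3 with the largest share in 1 library; others were named after their values were seen. In the study's quality table, replicate 1 at day 90 has 2 lines and replicate 2 none, so both were given the mean of these read numbers, in the RPM values too, and each assignment of the 2 numbers was an alternative. Limits of 0 counts take 3 counts over a group. Results on some genes are not reported here.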

Additional observations from a re-analysis of the deposited data

How the results depend on the processing

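The members' median changes were recomputed under the scalings, assignments of read numbers, base-quality groups, replicate block, Wald test, Fisher's test and left-out libraries. All moved by less than the spread between replicates, but all except that for IGF-1 at day 45 changed sign under some settings. That spread, an SD over same-numbered library pairs, was 0.381 to 0.784 and exceeded each median itself, so moving by less shows little. The medians were not computed for the filters or the interaction. The counts of called members moved. In untreated cultures 4 calls became 2 without the filter, with the second assignment of day 90 read numbers, with the replicate block and with base-quality groups (first assignment), 0 with at least 50 counts and with DESeq2's Wald test, 74 with Fisher's exact test, and 1 to 9 without single libraries. With IGF-1 1 call became 2 with TMM and with DESeq2 size factors, 0 with at least 50 counts, the Wald test, the replicate block and both base-quality groupings, 16 with Fisher's exact test, and 0 to 2 without single libraries. Averaged over treatment 3 became 5 with TMM, 6 with DESeq2 size factors, 0 with the Wald test, 73 with Fisher's exact test, and 2 to 6 without single libraries. For IGF-1 at day 45, 2 became 1 without the filter, 0 with at least 50 counts, the Wald test, the replicate block and base-quality groups (first assignment), 27 with Fisher's exact test, and 0 to 4 without single libraries. For IGF-1 at day 90, 1 became 0 with at least 50 counts and with the Wald test, 10 with Fisher's exact test, and 1 to 2 without single libraries. The test of the difference between treatments gave 0 to 2 calls without single libraries. The ZFPM2 change with IGF-1 reversed to 0.30 without replicate 1 with IGF-1 at day 45, and ranged from -3.09 to 0.30 without single libraries. The causes were not tested. For each tested circRNA the mean of the condition was subtracted from the log2 levels, and these deviations were correlated between libraries. In the deviations, same-numbered libraries of different conditions correlated at -0.05 to 0.12, and 1 of 30 pairs exceeded 0.1. The deviations of a condition cancel out in each circRNA, so the values of same-numbered and different-numbered pairs are not independent. Between the untreated and IGF-1 libraries of day 45, same-numbered pairs stood at 0.117, 0.070 and 0.034, different-numbered pairs at -0.086 to 0.024. At day 90 these were -0.008, 0.034 and 0.055, against -0.062 to 0.028. The main fit did not pair the samples, and whether same-numbered cultures share an origin was not tested. The replicate block was the alternative that takes the numbers into account.

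The number of members was 1267 at 30 or more reads, 128 at 100 or more, 981 with up to 1 day 0 read, 152 with the sum taken over the 9 untreated libraries, and 730 to 865 without single day 0 libraries. Members whose host had no day 0 back-splice read numbered 52 at 100 or more reads. Members with a 0 beside other reads of their condition numbered 14 when 20 reads were required and 60 without the 2 later libraries with the fewest back-splice reads, alternatives chosen after seeing the data. The low number of back-splice reads at day 0 limits what the absence of members with few reads can show. Without single libraries the medians were -0.44 to -0.05 for IGF-1 at day 45 and -0.08 to 0.44 at day 90.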

Other observations

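After the host genes had been seen, a list of cilium and centrosome genes was written from among them, so its counts are a description and carry no test. It held 44 members (8.0%) from 36 genes, and the host had no day 0 back-splice read in 24 of the 44. Each of the 36 genes on the list hosts a member by construction, so the share is not set against that of other circRNAs. Members with many reads came from LCA5 (169 reads), from IFT81, a subunit of the intraflagellar transport machinery (151), from SDCCAG8, a centrosomal protein (142), from TULP1 (141) and from CDH23, a cadherin of photoreceptors and hair cells (122). Averaged over treatment their median log2 change from day 45 to day 90 was -0.08, and none of the 44 was called in that comparison.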
